A study of Mus musculus with 4 samples.

Results

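A count rule meant to pick nonclassical, or patrolling, monocytes chose 766 of the 31290 kept cells in 4 single-cell RNA-seq libraries of mouse liver. Cells were kept if 500 or more genes were seen and no more than 20% of their UMIs were mitochondrial, where a UMI (unique molecular identifier) stands for 1 captured transcript. Each member had at least 2 UMIs of Ace and Treml4 together and at least 2 of the myeloid genes Lyz2, Plac8 and Itgam together. Each had at most 5 UMIs of C1qa, C1qb and C1qc, at most 2 of Chil3 and F13a1, at most 1 of Ptprb and Stab2, and 0 of the Cd3 genes, of Cd79a and Cd79b and of Siglech. The members numbered 50 in the NCD library, 213 and 304 in HFD replicates 1 and 2, and 199 in the JQF library. Of the members, 96 met a neutrophil definition, 297 others carried a dendritic cell mark, and Cx3cr1 was found in 320 of the 766, so they are called Ace/Treml4-positive myeloid cells here.

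All mice were male C57BL/6J, young when the diets began, and their livers were perfused and digested before loading on a 10x Genomics 3′ chip. NCD mice ate normal chow and were given water by mouth, and HFD mice ate a high-fat diet that produces fatty liver and were given water in the same way. JQF mice ate that high-fat diet and were then given the Jiangtang Qingre Formula, a mixture of medicinal herbs, by mouth. There was 1 NCD library, 2 HFD libraries and 1 JQF library, so spread was seen in HFD alone, and the effect of chow or formula cannot be told apart from that of its single library. Any p-value of a gene here measures against the spread between the 2 HFD libraries, drawn toward a spread shared by all genes. The libraries held 5975 to 10259 kept cells with median depths of 7608 to 13081 UMIs, and the NCD library was the deepest. Any pair of libraries shared 12 to 27 kept barcodes, 0.200% to 0.292% of the cells of the first. The material was a mixture of liver cell types, although a label field names hematopoietic stem cells.

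Monocytes leave the bone marrow as classical cells, which carry Ly6c2 and Ccr2 and enter inflamed tissue. Part of them become nonclassical cells, which lose those genes, depend on the nuclear receptor Nr4a1, carry the fractalkine receptor Cx3cr1 and the integrin Itgal (LFA-1), and crawl along the inside of blood vessels, where they clear debris. Ace, the angiotensin-converting enzyme, and Treml4, a receptor of the TREM family, are among the genes used to tell mouse nonclassical monocytes from classical ones. In the GRCm38 annotation (GENCODE M21) Ace lies on the plus strand at chr11:105967945-105989964 and Treml4 on the plus strand at chr17:48264295-48275360, both protein-coding.

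The members fell into 3 portions when marks of other cell types were counted. Dendritic-marked members had at least 1 UMI of Xcr1, Clec9a, Cd209a or Flt3, genes of conventional dendritic cells, and were 20, 85, 98 and 94 cells in NCD, HFD replicate 1, HFD replicate 2 and JQF, the order used throughout. Neutrophil-defined members had at least 51 UMIs of the granulocyte alarmins S100a8 and S100a9 and at least 2 of Csf3r and Retnlg, and were 13, 29, 18 and 36 cells, of which 1, 3, 2 and 1 also had a dendritic mark. Members with neither mark were 17, 99, 188 and 69 cells, or 34.0%, 46.5%, 61.8% and 34.7% of the members (exact 95% intervals 21.2% to 48.8%, 39.6% to 53.4%, 56.1% to 67.3% and 28.1% to 41.7%). HFD replicate 2 had the highest share of such cells, and its interval overlapped no other. These intervals and those that follow are Clopper-Pearson intervals and cover counting error only. A single UMI sets a dendritic mark, so a deeper cell is more likely to carry one. The members had median depths of 12994.5, 10613, 11190 and 16858 UMIs. The portions were not set apart at equal depth, and the part of depth in their shares and depths was not tested.

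The dendritic-marked cells carried most of the RNA. Their median depth was 36906, 27335, 24054 and 26353 UMIs, against 10917, 7299, 8281 and 11549 UMIs in the members with neither mark and 4016 to 5540 UMIs in the neutrophil-defined members. They held 73.3%, 70.9%, 56.3% and 71.9% of the summed member UMIs, and the members with neither mark held 18.4%, 23.8%, 40.6% and 21.5%. A sum over all members therefore followed the dendritic-marked cells first, and HFD replicate 2 weighted the cells with neither mark most. The plot of shares and portions gives both views.

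**Figure D1:**
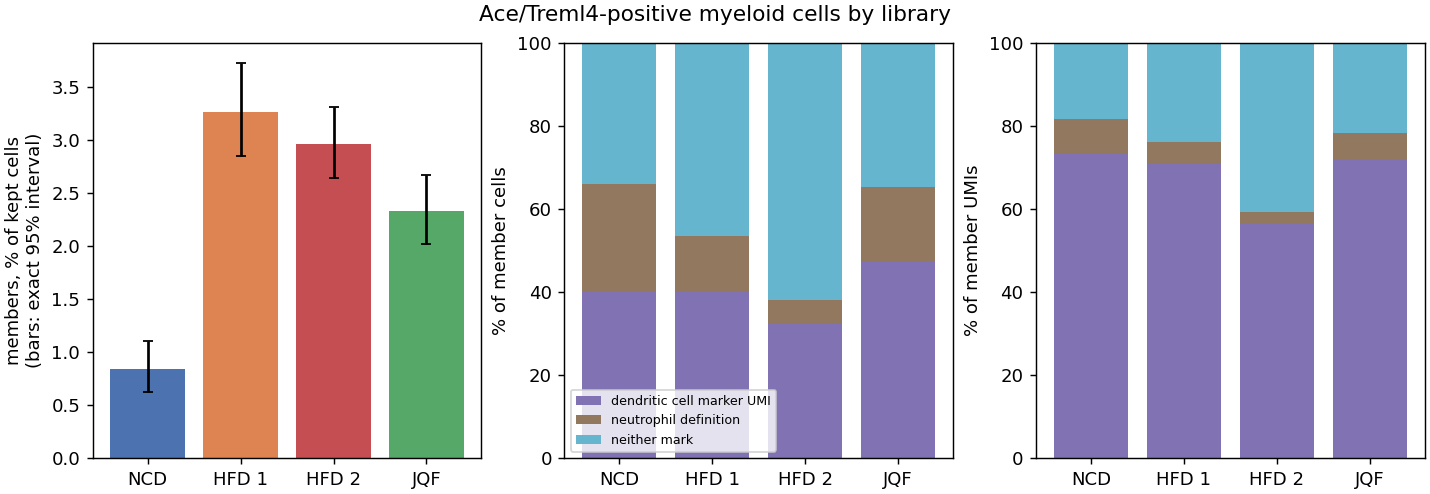
Left, members as a percentage of kept cells in each library with exact 95% intervals; middle and right, the 3 portions as a percentage of member cells and of member UMIs. Members were 0.837% of NCD cells and 2.33% to 3.27% elsewhere, and dendritic-marked cells held 56.3% to 73.3% of the UMIs.

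Ace and Cx3cr1 were found most often in the members with neither mark in every library. Ace, chosen by the rule, was found in 82.4%, 73.7%, 67.0% and 59.4% of the members with neither mark, in 5.00% to 16.3% of the dendritic-marked members and in 0 to 8.33% of the neutrophil-defined ones. Treml4 was found in 86.9% to 94.1% of members with neither mark, in 90.8% to 97.9% of dendritic-marked members and in every neutrophil-defined member, so Treml4 UMIs admitted those cells. Cx3cr1, which the rule did not use, was found in 76.5%, 65.7%, 64.4% and 62.3% of the members with neither mark, in 5.00% to 24.5% of the dendritic-marked members and in 11.1% to 27.6% of the neutrophil-defined ones. Nr4a1 and Itgal did not set the portions apart by detection, with Nr4a1 found in 72.2% to 100% and Itgal in 83.3% to 100% of the cells of each portion and library. In CPM, summed UMIs scaled to a total of 1000000 per library, Ace stood at 458, 256, 280 and 201 in members with neither mark and at 2.70 to 21.6 in dendritic-marked ones.

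The 17 nonclassical marker genes outside the rule, among them Cx3cr1, Itgal, Nr4a1, Spn, Fcgr4, Eno3 and Adgre4, summed to 9196, 6367, 6337 and 4902 CPM in members with neither mark. The same genes summed to 1834, 719, 1077 and 1053 CPM in dendritic-marked members, to 4934, 2604, 4460 and 3640 in neutrophil-defined members and to 3618, 2847, 3104 and 2594 in classical monocytes. Classical monocytes were taken from the same libraries by at least 3 UMIs of Chil3 and F13a1 and at most 1 of Ace and Treml4. They also had at most 50 UMIs of S100a8 and S100a9 and at most 1 of Retnlg, with the other limits those of the members. They numbered 14, 355, 483 and 236 cells, and 19, 462, 684 and 352 without the limit on Ace and Treml4. The sum was highest in the members with neither mark in each library, and lowest in the dendritic-marked members. Over all members it was 3444, 2163, 3317 and 2053 CPM, about the level of classical monocytes, which is why the members as a whole are not named as patrolling monocytes. These are descriptions, since the rule and the marks chose the cells.

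Genes that did not define the portions are given here, since the defining genes differ between portions by construction. Among markers of type 1 conventional dendritic cells, which present antigen to CD8 T cells, Cadm1 stood at 2212, 824, 1220 and 856 CPM and Batf3 at 126, 203, 189 and 174 in dendritic-marked members, against 0, 18.7, 18.8 and 35.0 and against 0, 41.2, 44.6 and 21.3 in members with neither mark. In the dendritic-marked members the 5 cycling genes Mki67, Top2a, Stmn1, Birc5 and Cdk1 summed to 480, 812, 688 and 926 CPM, against 10.8, 15.0, 60.4 and 40.0 in members with neither mark. Among neutrophil genes outside the definition, the chemokine receptor Cxcr2 stood at 551, 475, 664 and 617 CPM in neutrophil-defined members and at 16.2, 20.0, 14.7 and 21.3 in members with neither mark. All 7 neutrophil genes, those of the definition included, summed to 318, 683, 349 and 584 CPM in members with neither mark. Stellate cell genes, such as Dcn and the collagen Col3a1, summed to 0, 0, 495 and 871 CPM in members with neither mark, where Dcn UMIs came from 3 cells of HFD replicate 2 and 4 of JQF. Markers of T cells, NK cells and platelets each summed to at most 14.1 CPM in members with neither mark.

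**Figure D2:**
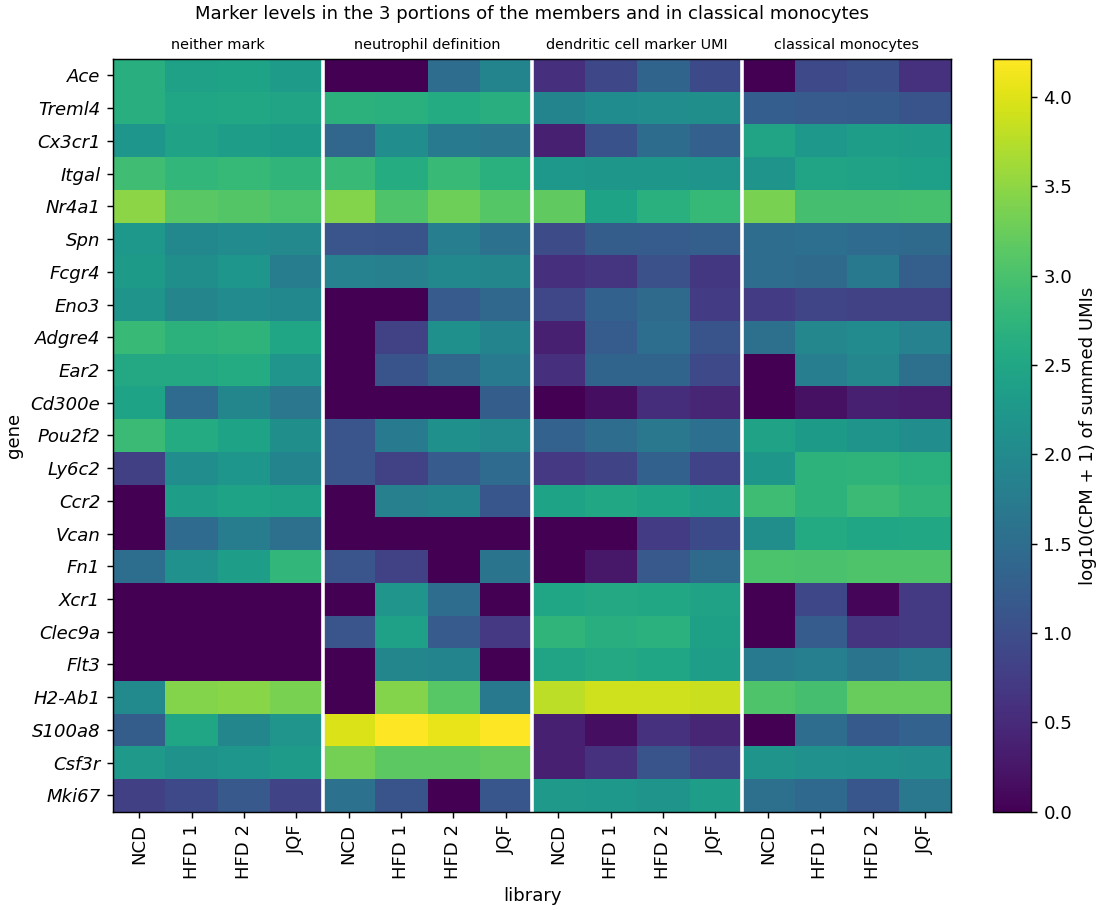
Heat map of log10(CPM + 1) of summed UMIs for 23 marker genes (rows) in the 4 libraries (columns) of each member portion and of classical monocytes. Ace, Spn, Eno3 and Adgre4 were highest in members with neither mark, Clec9a and Xcr1 in dendritic-marked members, and S100a8 in neutrophil-defined members.

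Ace and Treml4 UMIs were also found outside the members. Of kept cells with Cd3 and without Cd79 UMIs, 1.04%, 1.59%, 5.14% and 2.20% had at least 2 UMIs of Ace and Treml4 (intervals 0.498% to 1.90%, 1.12% to 2.20%, 4.30% to 6.09% and 1.77% to 2.71%), at median depths of 10660, 7158, 6851 and 8144 UMIs. Of kept cells with Cd79 and without Cd3 UMIs, which mark B cells, 2.82%, 14.8%, 25.0% and 9.48% did, at median depths of 9201, 7857, 9641 and 9748 UMIs. T cells should lack both genes, so the Cd3 shares are taken as the background, which was highest in HFD replicate 2. The Cd79 shares were highest there too, and how much of them was free RNA was not tested. Droplets with at most 100 UMIs, taken as empty, held Treml4 at 11.1, 41.6, 82.9 and 26.9 CPM and Ace at 2.37, 8.61, 13.1 and 4.78 CPM, in the same order of libraries. Macrophages with at least 20 C1q UMIs carried Treml4 in 65.5%, 62.9%, 67.0% and 59.3% of cells, and neutrophils in 42.6%, 29.3%, 19.4% and 35.2%. Ace was found in 0% to 5.08% of those macrophages and in 0% to 2.33% of neutrophils. Of kept cells with at least 2 UMIs of Xcr1 and Clec9a, members included, 6.52%, 26.7%, 30.8% and 24.1% met the Ace and Treml4 limit. Treml4 was found in 7.97%, 44.1%, 46.0% and 41.2% of them, with NCD the lowest. The part of this in the comparison of HFD with NCD was not tested. Treml4 alone therefore did not single out a cell type in these libraries. Where classical monocytes were taken without a limit on Ace and Treml4, Ace was found in 26.3%, 21.4%, 25.7% and 16.2% of them.

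The members with neither mark were split further by Ace. Those with an Ace UMI numbered 14, 73, 126 and 41 cells, 254 of 373 in all, and those with Treml4 alone 3, 26, 62 and 28, 119 in all. Spn (CD43), a classic surface mark of nonclassical monocytes, stood at 197, 103, 139 and 117 CPM with Ace and at 70.7, 49.8, 40.0 and 59.1 with Treml4 alone. Fcgr4, the activating IgG receptor, stood at 204, 141, 197 and 80.2 CPM with Ace and at 141, 49.8, 89.5 and 17.4 with Treml4 alone. Both genes were higher beside Ace in each library, as was Eno3, the muscle enolase isoform, at 159, 100, 130 and 129 CPM against 106, 12.5, 55.2 and 20.9. Cx3cr1 stood at 178, 276, 239 and 274 CPM with Ace and at 70.7, 212, 206 and 62.6 with Treml4 alone, a gap widest in JQF and small in HFD. Nr4a1 went the other way except in JQF, at 2985, 1281, 1150 and 1124 CPM with Ace and at 3182, 1600, 1305 and 900 with Treml4 alone. Adgre4 and Ceacam1 were higher with Ace in each library. Itgal, Cd300e and Pou2f2 were higher with Treml4 alone in NCD, where that group was 3 cells, and Ear2 in HFD replicate 1.

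Near the thresholds, 16, 76, 101 and 78 members had exactly 2 UMIs of Ace and Treml4, while 33, 183, 224 and 184 cells that met every other condition had 1 and stayed outside. For Chil3 and F13a1, 0, 16, 32 and 17 members had 2 UMIs and 0, 7, 22 and 4 cells just outside had 3. The C1q limit touched few cells, with 0, 0, 1 and 1 members at 5 UMIs and 0, 1, 4 and 0 cells at 6. Predicted doublets were kept, and 1, 8, 7 and 10 members, 2.00% to 5.03%, were predicted to be doublets.

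Members were more frequent in the livers on the high-fat diet than in the chow liver. They were 0.837% of NCD cells (interval 0.622% to 1.10%), 3.27% (2.85% to 3.73%) and 2.96% (2.64% to 3.31%) of HFD cells, and 2.33% (2.02% to 2.67%) of JQF cells. Both HFD libraries stood above NCD and JQF, and the JQF interval overlapped that of HFD replicate 2 by a narrow margin. The mean of the HFD shares was 3.72 times the NCD share, and JQF was 0.748 times the HFD mean. With 1 library against 2, an exact permutation test cannot go below p = 0.333 (one-sided), so no test of shares was made. Over cells with a Ptprc (CD45) UMI, a mark of blood-derived cells, the shares were 2.12%, 3.52%, 3.49% and 2.61%, and the ratio of HFD to NCD fell to 1.65.

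Set beside classical monocytes the order turned. Members were 78.1%, 37.5%, 38.6% and 45.7% of members and classical monocytes together, which put NCD highest, because the NCD library held 14 classical monocytes. Members with neither mark alone were 0.285% of NCD cells (interval 0.166% to 0.455%), 1.52% (1.24% to 1.85%) and 1.83% (1.58% to 2.11%) of HFD cells and 0.808% (0.629% to 1.02%) of JQF cells. Here the HFD libraries lay above both others with intervals that did not overlap theirs. HFD stood at 5.89 times NCD and JQF at 0.482 times HFD. These are shares of all kept cells, for a portion set apart after its values were seen. Ptprc cells numbered 2353 of 5975 in NCD, 5968 of 6516 and 8577 of 10259 in HFD and 7446 of 8540 in JQF. The share over Ptprc cells was not taken for this portion. After thinning every cell to 5000 UMIs, members were 0.505%, 1.97%, 2.32% and 1.11% of the cells deep enough, the same order of groups.

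To ask what the diet changed, UMIs were summed over the members of each library and tested with edgeR's quasi-likelihood test, with Benjamini-Hochberg adjustment over 11963 genes. The residual spread comes from the HFD pair alone, and NCD and JQF are assumed to vary like it. The fit then draws the spread of each gene toward a trend over all genes, with a weight of 4.98 degrees of freedom. That trend outweighs the residual degree of freedom of the HFD pair. In HFD against NCD, 163 genes were higher (1.36% of those tested), 533 lower (4.46%) and 696 changed in all (5.82%), and the median log2 difference over all genes was 0.11. The share of lower calls depended on the setting, with 616 higher and 604 lower after thinning every cell to 5000 UMIs, 1178 and 1199 with no filter on low counts, and 694 and 994 with 50 members per library. Of the gene lists, interferon-stimulated genes had the most members higher in HFD, and immediate early and heat shock genes, Nr4a1 among them, the most lower. Without any member that had a dendritic mark, 0 of 8675 genes passed in edgeR, with 2050 at an unadjusted p under 0.05, and NCD then rested on 29 cells. Fold sizes did not all shrink with the calls. DESeq2 called 502 genes over all members, and of the settings tried for this comparison only the removal of dendritic-marked cells brought the edgeR count to 0.

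Interferon-stimulated genes are switched on by type I and type II interferons, and their products block viral replication or draw in T cells. Of 21 tested, 9 were higher in HFD than in NCD, 0 were lower, and all 21 had a positive log2 difference, with a median of 1.84 against 0.11 over all genes, of which 1.36% were higher. Ifi27l2a, an interferon-inducible membrane protein, stood at 43.6, 518, 508 and 262 CPM in the 4 libraries, a log2 difference of HFD to NCD of 3.44 (SE 0.27, edgeR quasi-likelihood adjusted p = 0.012). Isg15, a ubiquitin-like modifier, stood at 7.93, 75.5, 63.6 and 38.5 CPM (log2 difference 3.01, SE 0.36, edgeR adjusted p = 0.018). NCD was the lowest library for both, and JQF lay between NCD and HFD. Cxcl10, a chemokine for activated T cells, stood at 60.5, 202, 268 and 115 CPM (1.85, SE 0.32, edgeR adjusted p = 0.035). Bst2, which tethers budding virus to the cell, stood at 41.7, 168, 154 and 119 CPM (1.84, SE 0.26, edgeR adjusted p = 0.024). Ifit3, an RNA-binding effector, had 0 UMIs in NCD and 17.5, 22.4 and 5.93 CPM in HFD and JQF, at least 6.71-fold higher in HFD than the level 3 UMIs would give in NCD.

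Rtp4, Ifit2, Zbp1 and Oasl2 also passed, with log2 differences of 2.67, 2.50, 2.27 and 1.82 and edgeR adjusted p-values of 0.027 to 0.050. Ifitm3, the most abundant gene of the list at 248, 673, 1011 and 423 CPM, did not pass (log2 difference 1.66, edgeR adjusted p = 0.051). In the NCD members, 65.9% of Ifi27l2a UMIs and 62.5% of Isg15 UMIs came from 3 cells, so the NCD values rest on few cells. Some of these transcripts differed in the empty droplets too, where Ifi27l2a stood at 45.9, 564, 599 and 216 CPM, Ifit3 at 12.2, 49.5, 54.8 and 22.9, and Zbp1 at 10.2, 47.1, 42.2 and 23.3, while Isg15 stood at 55.5, 113, 65.1 and 110. Their part in the member values was not tested. Without dendritic-marked members the log2 differences were 3.03 for Ifi27l2a, 2.98 for Isg15, 3.42 for Cxcl10 and 3.57 for Bst2, with edgeR adjusted p-values of 0.088 to 0.0998.

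The difference was present in the portions that carried most of the members. Summed over the list, interferon-stimulated genes stood at 1440, 5432, 5270 and 3233 CPM in members with neither mark and at 483, 1450, 1413 and 892 in dendritic-marked members. In both, NCD was lowest, HFD highest and JQF between them. The neutrophil-defined members held 2060, 2689, 2508 and 2605 CPM, a narrow range, and classical monocytes 3727, 6669, 6722 and 4503 CPM. Isg15 was found in 1 of 17, 37 of 99, 68 of 188 and 20 of 69 members with neither mark, and Ifi27l2a in 3, 83, 158 and 42 of them.

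These promoters are shown because their genes rose together in HFD members and hold a match to the core of the interferon-stimulated response element, searched as GAAA, any 2 bases and GAAA. Each is the 250 bases before the RefSeq transcript start (GRCm38.p6), written 5′ to 3′ on the gene's strand, with matches on either strand in capitals and overlapping matches joined. Isg15 lies on the minus strand with its window at chr4:156200819-156201068 and 3 overlapping matches that begin 78 to 66 bases before the start. Cxcl10 lies on the minus strand with its window at chr5:92348890-92349139 and 1 match 213 bases before the start. Ifit3 lies on the plus strand with its window at chr19:34583279-34583528 and 2 matches on the opposite strand at 156 and 122 bases.
Isg15: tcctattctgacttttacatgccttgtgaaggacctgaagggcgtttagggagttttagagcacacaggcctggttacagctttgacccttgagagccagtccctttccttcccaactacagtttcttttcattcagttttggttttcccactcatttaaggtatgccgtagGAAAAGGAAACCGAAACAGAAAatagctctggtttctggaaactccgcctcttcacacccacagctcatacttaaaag
Cxcl10: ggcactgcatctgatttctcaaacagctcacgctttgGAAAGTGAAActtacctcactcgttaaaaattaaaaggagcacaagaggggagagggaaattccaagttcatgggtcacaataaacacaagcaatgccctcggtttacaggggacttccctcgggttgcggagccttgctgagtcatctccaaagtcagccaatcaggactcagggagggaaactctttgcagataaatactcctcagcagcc
Ifit3: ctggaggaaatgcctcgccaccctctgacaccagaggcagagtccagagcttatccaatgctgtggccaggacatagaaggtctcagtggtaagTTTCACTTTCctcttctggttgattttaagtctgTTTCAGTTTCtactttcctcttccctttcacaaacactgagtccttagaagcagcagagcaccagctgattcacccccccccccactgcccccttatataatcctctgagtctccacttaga

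Of 32851 promoter windows in the RefSeq table, 978 (2.98%) held such a match on either strand. Of the 22 listed interferon-stimulated genes, 15 had a promoter entry and 8 of those held a match, namely Bst2, Cxcl10, Gbp2, Ifit1, Ifit3, Isg15, Rsad2 and Stat2. None of the 16 windows of immediate early and heat shock genes held one. A match describes letters in this window and is not a measured binding site.

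Immediate early genes are transcribed within minutes of a stimulus, digestion of a tissue included, and the heat shock genes beside them respond to stress on protein folding. Of 19 tested, 5 were lower in HFD than in NCD, 0 were higher, and 17 had a negative log2 difference, with a median of -0.93, where 4.46% of all tested genes were lower. Fosb, a subunit of AP-1, stood at 2400, 822, 981 and 1614 CPM (log2 difference -1.52, SE 0.22, edgeR adjusted p = 0.025). Egr1, a zinc finger transcription factor, stood at 1195, 422, 346 and 960 CPM (-1.75, SE 0.21, edgeR adjusted p = 0.018). For both, JQF stood between NCD and HFD. The log2 difference of Egr1 was 0.32 without the dendritic-marked members. Hspa1a (HSP70) stood at 2838, 1158, 1083 and 771 CPM (-1.46, SE 0.19, edgeR adjusted p = 0.021), with JQF the lowest. Dnajb1, its co-chaperone, stood at 403, 149, 101 and 146 CPM (-1.81, SE 0.27, edgeR adjusted p = 0.026). Fos and Jun, at 6068, 2485, 3844 and 4767 CPM and at 2344, 1504, 1708 and 2406 CPM, did not pass (edgeR adjusted p = 0.094 and 0.12).

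The 3 Nr4a receptors, orphan nuclear receptors that act without a known ligand, were all lower in HFD members. Nr4a1, which nonclassical monocytes need, stood at 1880, 572, 811 and 775 CPM (log2 difference -1.55, SE 0.28, edgeR adjusted p = 0.036). Nr4a2 stood at 912, 74.0, 76.2 and 124 CPM (-3.71, SE 0.21, edgeR adjusted p = 0.012), and Nr4a3 at 1876, 133, 164 and 222 CPM (-3.77, SE 0.24, edgeR adjusted p = 0.012). NCD was highest for each, and JQF lay nearer to HFD than to NCD. The portions differed in where that NCD level sat. Nr4a3 stood at 2518, 145, 236 and 264 CPM in dendritic-marked members, all 20 of which had it in NCD, and at 102, 78.7, 42.2 and 78.8 CPM in members with neither mark. Nr4a2 stood at 1152, 74.6, 102 and 154 CPM in dendritic-marked members and at 356, 82.4, 42.8 and 56.3 in members with neither mark. Nr4a1 was high in NCD in every portion, at 3015, 1345, 1198 and 1043 CPM in members with neither mark and at 1506, 271, 470 and 652 in dendritic-marked members. Without dendritic-marked members the log2 difference of Nr4a3 was -0.53, that of Nr4a2 -2.25 and that of Nr4a1 -1.19, and none passed.

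The promoters of the 3 Nr4a genes are shown because the genes fell together and each window holds TGACG, the core of the cyclic AMP response element, in capitals here on either strand. Nr4a1 has 4 matches (plus strand, chr15:101266596-101266845), Nr4a2 has 4 (minus strand, chr2:57124004-57124253) and Nr4a3 has 4 (plus strand, chr4:48045055-48045304), each window being the 250 bases before the RefSeq start in GRCm38.p6, written 5′ to 3′.
Nr4a1: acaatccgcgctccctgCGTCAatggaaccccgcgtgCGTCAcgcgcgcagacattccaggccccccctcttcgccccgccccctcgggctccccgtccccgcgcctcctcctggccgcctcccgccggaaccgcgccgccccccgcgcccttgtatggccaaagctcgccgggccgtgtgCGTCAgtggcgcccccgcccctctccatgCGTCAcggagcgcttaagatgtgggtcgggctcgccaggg
Nr4a2: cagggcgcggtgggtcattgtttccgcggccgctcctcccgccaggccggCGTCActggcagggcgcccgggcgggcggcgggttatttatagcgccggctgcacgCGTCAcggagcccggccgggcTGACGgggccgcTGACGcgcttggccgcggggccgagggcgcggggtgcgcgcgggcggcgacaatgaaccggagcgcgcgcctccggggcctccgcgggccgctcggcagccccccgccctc
Nr4a3: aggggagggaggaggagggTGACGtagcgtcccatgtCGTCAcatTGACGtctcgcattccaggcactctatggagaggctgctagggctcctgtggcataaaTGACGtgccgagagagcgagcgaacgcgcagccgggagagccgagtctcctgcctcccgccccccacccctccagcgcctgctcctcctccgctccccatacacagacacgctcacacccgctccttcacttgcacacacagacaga

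The motif is short, and 5836 of the 32851 windows (17.8%) held it, as did 8 of 15 immediate early and heat shock genes with an entry and 3 interferon-stimulated genes. The full palindrome TGACGTCA was found in 1.55% of all windows and in none of the 3 Nr4a windows.

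**Figure D3:**
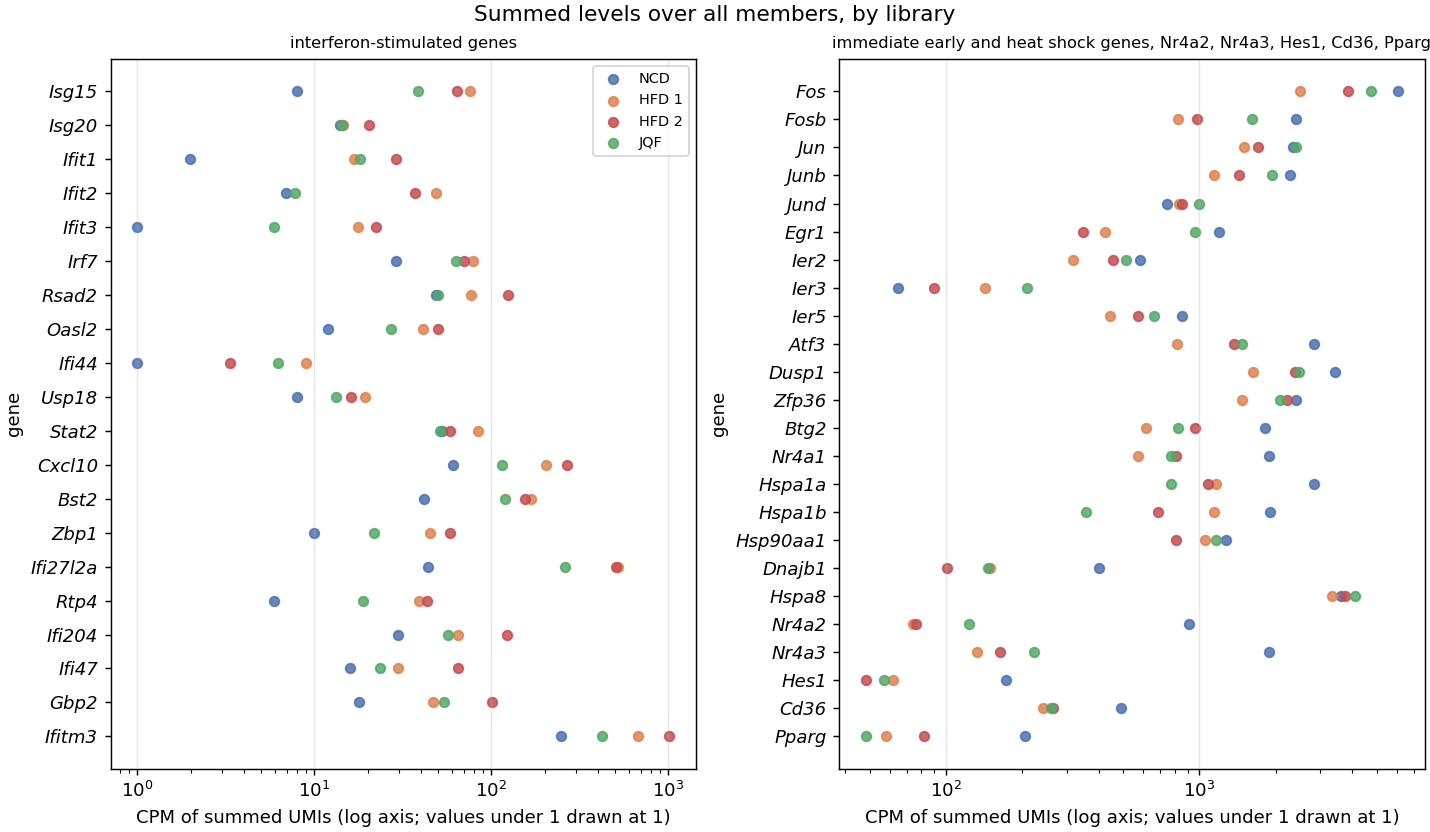
Level over all members in each library (CPM of summed UMIs, log axis) for 20 of the 21 tested interferon-stimulated genes, left, and for immediate early and heat shock genes with Nr4a2, Nr4a3, Hes1, Cd36 and Pparg, right. NCD was below both HFD libraries for each interferon-stimulated gene plotted and above both for 21 of the 24 genes on the right, the others being Hspa8, Jund and Ier3.

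The genes with the largest falls were picked by a rule that asked for UMIs in at least 10 cells. Of them, Antxr2, Wnk1 and Lrrk2 stood lower in the members with neither mark than over all members in each library. Antxr2, an anthrax toxin receptor that binds collagen, stood at 1956, 129, 120 and 373 CPM (log2 difference -4.09, SE 0.21, edgeR adjusted p = 0.012). In dendritic-marked members it stood at 2291, 95.2, 137 and 354 CPM, in neutrophil-defined members at 3042, 830, 710 and 1407, and in members with neither mark at 129, 76.2, 51.6 and 116. Wnk1, a kinase of ion transport, stood at 2572, 298, 285 and 725 CPM over all members (-3.26, SE 0.20, edgeR adjusted p = 0.012) and at 329, 209, 185 and 210 in members with neither mark. Lrrk2, a kinase of the endolysosome, stood at 1310, 142, 174 and 283 CPM over all members (-3.16, SE 0.24, edgeR adjusted p = 0.012) and at 102, 40.0, 40.5 and 27.5 in members with neither mark. After every cell was thinned to 5000 UMIs the log2 difference of Lrrk2 was 0.22, with an edgeR adjusted p of 0.82. Gpd2, the mitochondrial glycerol phosphate dehydrogenase, stood at 911, 96.6, 115 and 168 CPM over all members (-3.22, SE 0.23, edgeR adjusted p = 0.012) and at 599, 130, 111 and 148 in members with neither mark, where NCD was again the highest. Zbtb10, 4932438H23Rik, Gm13184 and Gm1123 completed the list with Nr4a2 and Nr4a3, at 18.8 to 59.5 CPM in NCD and 0.595 to 6.54 in HFD. Without dendritic-marked members the log2 differences were -5.29 for Zbtb10, -3.76 for Gm13184 and -2.83 for Antxr2. Those of Gpd2, Lrrk2 and Wnk1 were -1.98, -1.41 and -1.19.

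The 10 rises that the fit ranked first were genes with 0 UMIs in the 50 NCD members, so only lower bounds on the fold can be given and their rank depends on how the fit treats a count of 0. Saa3, an acute phase protein, stood at 34.5 and 54.1 CPM in HFD, at least 14.9-fold the NCD limit, and at 80.3 CPM in JQF, where 99.3% of its UMIs came from 3 cells. Fcgr1, the high-affinity IgG receptor, stood at 22.01, 38.6 and 11.3 CPM in HFD and JQF, at least 10.2-fold in HFD, and Clec4b1, a C-type lectin, at 15.5, 28.6 and 24.5 CPM, at least 7.40-fold. The empty droplets held Fcgr1 at 7.10, 57.6, 89.9 and 17.3 CPM, and its part in the member values was not tested. Ifit3 was among the 10 with the bound given above. Ccnb1 and Cdkn3, genes of mitosis, were at least 5.54-fold and 3.92-fold higher, and Cd72, Pacsin1, Hist1h3d and Gpnmb at least 4.74-fold, 4.54-fold, 4.01-fold and 3.89-fold higher.

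Lipid handling genes moved both ways. Of 23 tested, Nr1h3 (LXR alpha), Fabp5 and Gpnmb were higher in HFD and Cd36 and Pparg lower, with a median log2 difference of 0.89, where 1.36% of all tested genes were higher and 4.46% lower and their median was 0.11. Nr1h3, a sterol sensor, stood at 7.93, 45.8, 75.0 and 40.7 CPM (2.82, SE 0.57, edgeR adjusted p = 0.048), and Fabp5, a fatty acid carrier, at 3.97, 49.4, 80.0 and 40.4 CPM (3.91, SE 0.65, edgeR adjusted p = 0.032). The NCD values of these genes rest on 3 and 4 cells. The lipid handling list summed to 4987, 13917, 19978 and 8711 CPM in the empty droplets. Over all members it summed to 2831, 4007, 4855 and 4345 CPM. The part of free RNA in the member values was not tested. Cd36, the fatty acid and oxidised lipid scavenger receptor, stood at 489, 242, 265 and 260 CPM (-1.06, SE 0.22, edgeR adjusted p = 0.049), and Pparg at 205, 58.0, 81.9 and 48.5 CPM (-1.66, SE 0.29, edgeR adjusted p = 0.035). For both, NCD was highest and the other libraries lay together. Of 17 Fc and scavenger receptors, Fcgr1, Axl and Cd209a were higher and Cd36 lower (median 1.10), read against those same shares, and Axl, which takes up dying cells, had 1 UMI in NCD and a ratio of 59.4 (95% counting interval 10.96 to 2428).

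Of 13 glycolysis genes tested, Eno1, Gapdh and Pfkl were higher and 0 lower (median 0.88), where 1.36% of all tested genes were higher. Eno1 (alpha enolase) stood at 10.9, 106, 147 and 105 CPM (3.43, SE 0.44, edgeR adjusted p = 0.019), NCD below all the others, and the empty droplets held it at 8.73, 85.6, 112 and 72.6 CPM. The part of free RNA in that value was not tested. Of 17 nonclassical markers, Gngt2, a G protein gamma subunit, was higher at 124, 393, 617 and 322 CPM (1.92, SE 0.38, edgeR adjusted p = 0.046) and Nr4a1 and Hes1 were lower, with a median of 0.06, where 1.36% of all tested genes were higher and 4.46% lower. Cx3cr1 stood at 32.7, 76.1, 111 and 58.8 CPM and did not pass (edgeR adjusted p = 0.084), and Itgal stood at 340, 288, 386 and 261 CPM (adjusted p = 0.81).

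In the remaining lists few genes passed, and counts of 1 in 16 or 1 in 21 are close to the 4.46% of all tested genes that were lower, so nothing is read from them about the lists. Cd86, a costimulatory ligand for T cells, was the 1 of 10 class II and costimulation genes that was lower, at 1377, 387, 461 and 531 CPM (-1.81, SE 0.23, edgeR adjusted p = 0.019), and none was higher. Cd44, the hyaluronan receptor, was the 1 of 16 adhesion and migration genes that was lower, at 4666, 851, 1177 and 1380 CPM (-2.31, SE 0.26, edgeR adjusted p = 0.017). Nlrp3, the inflammasome sensor, was the 1 of 21 cytokine and inflammasome genes that was lower, at 488, 162, 146 and 292 CPM (-1.78, SE 0.21, edgeR adjusted p = 0.017). Of 10 survival genes Bax was higher and Bcl2l11 and Bcl2l1 lower, of 10 mitochondrially encoded genes mt-Co1 was higher, and of 19 transcription factors the Nr4a genes and Hes1 were lower. None of 9 class I genes and none of 7 complement genes passed in edgeR, and the medians were 0.53 and 1.44, the latter 0.16 once genes at 0 in NCD were set to their bound. Some marker lists of other cells had medians away from the 0.11 of all genes, at 2.57 for NK (4 of 4 positive) and 2.24 for classical monocytes (5 of 7 positive). Erythroid genes had a median of 1.19 (4 of 4 positive) and hepatocyte genes of -0.90 (5 of 6 negative). Their part in other values was not tested. Among markers of other cells, Hp, Cd209a, Bst2, Klrd1 and Cdk1 were higher and Mmp9 and Cadm1 lower in HFD. Of these, Cadm1 is a dendritic gene whose log2 difference was positive without the dendritic-marked members and after thinning to 5000 UMIs, Mmp9 is a neutrophil gene, and the 6 tested neutrophil markers all had negative log2 differences, beside a neutrophil-defined share of members of 26.0% in NCD and of 13.6% and 5.92% in HFD.

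Members with neither mark, the portion with the highest sum of nonclassical markers, were 17 cells in NCD, too few for a test, and their levels are given as values only. The 7 classical monocyte genes outside the rule summed to 108, 1018, 1234 and 1386 CPM in them, against 2721, 3323, 3587 and 3297 in classical monocytes. The 10 class II and costimulation genes summed to 2157, 15287, 16530 and 14321 CPM, against 8582, 6237, 10379 and 11218. Ccr2, the receptor that brings monocytes out of the marrow, had 0 UMIs in NCD and stood at 232, 277 and 250 CPM in HFD and JQF, at least 15.8-fold higher in HFD than 3 UMIs would give. H2-Ab1, a class II chain, stood at 102 CPM in NCD and at 2724, 2948 and 2296 in HFD and JQF, and Ciita, the regulator of class II genes, had 0 UMIs in NCD and 144, 111 and 66.3 CPM in the others. Ly6c2 stood at 5.39, 115, 163 and 78.8 CPM, where the NCD value was 1 UMI and 85.7% of the JQF UMIs came from 3 cells. NCD was the lowest library for all of them. In the cells with an Ace UMI, most of which also had Treml4, H2-Ab1 stood at 121, 2752, 2764 and 2465 CPM and Ccr2 at 0, 262, 276 and 256, with NCD again the lowest. The empty droplets held H2-Ab1 at 621, 2533, 2472 and 1542 CPM and Ccr2 at 15.1, 148, 123 and 84.3 CPM, with NCD lowest as well, and their part was not tested.

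Other genes stood highest in the NCD cells of that portion. Cd36 stood at 1893, 287, 334 and 601 CPM, Pparg at 1100, 172, 182 and 170 CPM, and Hes1, a Notch target linked to the nonclassical fate, at 820, 132, 92.1 and 118 CPM. Each was found in at least 13 of the 17 NCD cells. Cd300e, an activating receptor of monocytes, stood at 280, 28.7, 85.6 and 45.0 CPM, and Pou2f2 at 739, 385, 272 and 125 CPM. In the members with neither mark, NCD was thus the lowest library for Ly6c2 and Ccr2 and the highest for Hes1 and Cd36.

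JQF was compared with HFD, with the same HFD libraries as above, so the 2 comparisons share samples. Over all members 0 of 11963 genes passed in edgeR (0.0%), with 934 at an unadjusted p under 0.05, and DESeq2 called 4. The count was 472 with no filter on low counts, 236 with 50 members per library and 124 after thinning to 5000 UMIs. Those settings tested 18888, 8414 and 6502 genes. The genes named below were chosen as the largest differences in these same counts. That many of them passed in those settings is therefore no separate evidence. Among the list medians were 0.37 for immediate early and heat shock genes (17 of 19 positive), 0.79 for neutrophil markers (6 of 6 positive), -0.62 for nonclassical markers (14 of 17 negative), -0.69 for interferon-stimulated genes (20 of 21 negative) and -0.28 for class I genes (9 of 9 negative), against 0.00 over all genes, and no member of any list passed. Markers of other cell types also had medians away from 0, at 1.41 for hepatocyte (5 of 6 positive), 1.11 for stellate (3 of 3 positive), 0.62 for cycling (5 of 5 positive), -1.62 for NK (4 of 4 negative) and -3.58 for erythroid genes (4 of 4 negative). Their sums over all members were 93.1 and 85.3 CPM in HFD and 195 in JQF for hepatocyte genes, 1.19, 202 and 247 for stellate, 581, 413 and 676 for cycling, 91.6, 47.2 and 34.0 for NK and 0.595, 61.0 and 2.43 for erythroid genes, and their part in other values was not tested. HFD replicate 2 alone carried the HFD level of the stellate and erythroid genes. In the empty droplets the interferon-stimulated list summed to 3101 and 3324 CPM in HFD and 1941 in JQF, and that part was not tested either. Neutrophil-defined cells were 18.1% of JQF members and members with neither mark 34.7%, against 13.6% and 5.92% and 46.5% and 61.8% in HFD, and the part of this in the medians was not tested.

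The largest differences of JQF, none past the threshold, included Gm17749, a noncoding transcript, at 22.9 and 18.1 CPM in HFD and 136 in JQF (log2 difference 2.79, SE 0.23, edgeR adjusted p = 0.12), and it stood at 131 CPM in NCD. Chka, choline kinase, stood at 123 and 98.9 CPM in HFD and 324 in JQF (1.61, SE 0.22, edgeR adjusted p = 0.20), and in neutrophil-defined members at 491, 38.6 and 1325. Dhx40, Tcof1, Lmna, Dennd4a, Gm26802, Antxr2 and the neutrophil gene Retnlg also stood higher, with log2 differences of 1.40 to 2.14 and adjusted p-values of 0.20 to 0.53. In the other direction Ear2, a ribonuclease of nonclassical monocytes, stood at 99.6 and 169 CPM in HFD and 42.6 in JQF (-1.61, SE 0.40, edgeR adjusted p = 0.47), and Adgre4, an adhesion receptor, at 130 and 245 against 76.3 CPM (-1.26, SE 0.43, edgeR adjusted p = 0.57). JQF lay outside the HFD pair for each of these genes. AY036118, Klra2, Ccl5, Apobec1, Clec2d, Pot1b, Hspa1b and Fam49a were the others that stood lower, with log2 differences of -1.29 to -1.51. Against NCD, JQF had 0 genes past the threshold in edgeR (0.0%), 2573 at an unadjusted p under 0.05 and 199 in DESeq2.

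Within the members with neither mark, JQF stood apart from both HFD libraries for a set of genes, given as values with no test because the portion was set apart after its values were seen. An edgeR fit of it, kept as an alternative, passed 82 of 8102 genes (1.01%), 66 higher (0.815%) and 16 lower (0.197%), and nothing is read from that count. Cd63, a tetraspanin of lysosomes, stood at 41.2 and 65.1 CPM in HFD and 372 in JQF, from 11, 25 and 21 cells, and 5.39 in NCD. Lpl, the lipoprotein lipase, stood at 83.7 and 127 CPM in HFD and 816 in JQF, and Fn1 (fibronectin) at 134 and 217 against 616 CPM, from 22 JQF cells each. The top 3 JQF cells gave 42.4% of the Cd63, 57.8% of the Lpl and 51.6% of the Fn1 UMIs. Gpnmb stood at 38.7, 20.5 and 191 CPM, but 84.97% of its JQF UMIs came from 3 of 11 cells. Of 7 Kupffer cell markers Cd163 was at 0 in all libraries of this portion, and the 7 summed to 448, 122, 205 and 402 CPM, against 385, 729, 2744 and 762 in the empty droplets. The JQF sum held Marco at 178 CPM, all from 1 cell, and Cd5l at 126, all from 3 cells, against at most 1.76 and 16.4 CPM in the other libraries. Without cells that had a Marco or Cd5l UMI, a choice made after seeing the data, Cd63 stood at 43.0, 54.7 and 350 CPM in HFD and JQF, Lpl at 87.3, 131 and 560, Fn1 at 138, 221 and 593 and Gpnmb at 40.4, 24.8 and 205, from 66 JQF cells. Most of the Cd63, Lpl and Fn1 lay in the JQF members with Treml4 alone, which had Lpl at 1682, Cd63 at 768 and Fn1 at 1150 CPM, against 328, 149 and 315 in those with Ace. Irs2, an adaptor of the insulin receptor, stood at 21.2, 25.8 and 110 CPM from 8, 33 and 30 cells, and Vat1 at 15.0, 22.3 and 93.8 CPM. Igkc, an immunoglobulin chain, stood at 16.2, 15.8 and 63.8 CPM beside 623, 2125 and 4477 CPM in the empty droplets, and the part of free RNA was not tested.

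Lower in JQF were Cxcl10, at 285 and 513 CPM in HFD and 57.6 in JQF from 26, 74 and 12 cells, and Ms4a4a, a tetraspanning membrane protein, at 62.4, 45.8 and 5.00 CPM from 21, 49 and 2 cells. NCD stood at 43.1 CPM for Cxcl10, all from 1 of 17 cells, and 67.4% of the JQF UMIs came from 3 cells. Klra2, an inhibitory lectin-like receptor, stood at 280, 254 and 86.3 CPM, Ear2 at 352, 384 and 156, and Pou2f2, a transcription factor of nonclassical monocytes, at 385, 272 and 125. Of the 17 nonclassical markers 16 had a negative log2 difference of JQF to HFD, with a median of -0.27, and of 20 interferon-stimulated genes 18 did, with a median of -0.70, against -0.01 over all 8102 genes fitted. The interferon-stimulated list also summed lower in JQF than in both HFD libraries in classical monocytes, neutrophils and macrophages. It did not in neutrophil-defined members, at 2689, 2508 and 2605 CPM. In the empty droplets it stood at 3101, 3324 and 1941 CPM, and the part of free RNA was not tested. Cx3cr1 differed little, at 263, 229 and 198 CPM, as did Itgal at 623, 663 and 576 CPM and Spn at 92.4, 109 and 96.3. The cells with an Ace UMI had Pou2f2 at 436, 332 and 188 CPM, Ear2 at 322, 423 and 186 and Cxcl10 at 183, 381 and 62.6, JQF the lowest of the 3 for each. In these cells JQF was also the lowest for Nr4a1, Fcgr4 and Adgre4. It lay between the HFD libraries for Cx3cr1 (276, 239 and 274 CPM), Itgal (673, 712 and 694) and Spn (103, 139 and 117). The same held for Eno3, Cd300e and Ceacam1.

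**Figure D4:**
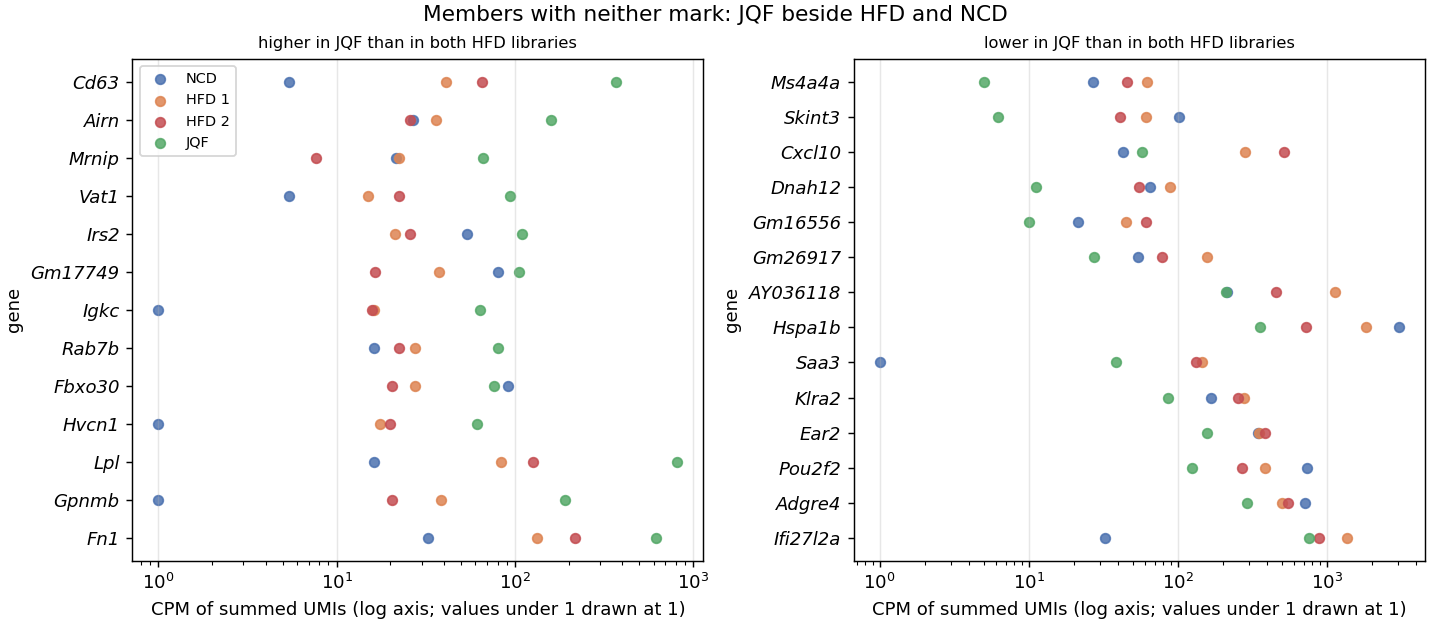
Level in members with neither mark (CPM of summed UMIs, log axis, values under 1 drawn at 1) for genes that stood above both HFD libraries in JQF, left, and below both, right. Genes were chosen from these values, and NCD rests on 17 cells; Cd63 stood at 372 in JQF and at 41.2 and 65.1 in HFD.

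Whether the JQF to HFD change differed between the members and classical monocytes of the same libraries was tested. The test was the class by group term of an edgeR quasi-likelihood fit with library as block. This fit too drew the spread of each gene toward a trend over all genes. It left 1 residual degree of freedom, from the HFD pair, so its p-values lean on that trend. JQF had 1 library, so the spread of its change between mice was not measured. All members were summed, and dendritic-marked cells held 71.9% of their JQF UMIs. Dendritic cells and neutrophils were not compared, so a gene that passed need not be particular to the members. Of 12361 genes, 208 (1.68%) had a JQF to HFD change that differed between the classes, 165 with the more positive change in the members and 43 with the more negative. Chka was among them, with a difference of changes of 1.36 (log2, SE 0.37, edgeR adjusted p = 0.046), and so was Lpl (1.47, SE 0.33, edgeR adjusted p = 0.0096), with 57.1% of its JQF member UMIs in 3 cells. Fam49a, a regulator of the actin switch Rac1, had a difference of -1.27 (SE 0.34, edgeR adjusted p = 0.045), Fabp5 of -1.94 (SE 0.33, edgeR adjusted p = 0.00034) and Cxcl9, a T cell chemokine, of -1.85 (SE 0.32, edgeR adjusted p = 0.00034). Rsad2 (viperin) had a difference of 1.74 (SE 0.34, edgeR adjusted p = 0.0018). In classical monocytes it stood at 198, 273 and 34.0 CPM in HFD and JQF, and in the members at 77.0, 123 and 50.1. A negative difference of changes need not be a fall in the members. Cxcl9 stood higher in JQF than in HFD in the members with neither mark. Of the JQF genes named over all members, Chka and Fam49a alone passed this test, and Ms4a4a, named in the members with neither mark, had a difference of -3.18 (SE 0.64, edgeR adjusted p = 0.0029) with 4 JQF UMIs from 2 cells. Markers of other cells passed as well, among them Ccl22, Ccr7 and Fscn1 of mature dendritic cells, S100a9 of neutrophils and Apoa1 of hepatocytes. The definition of classical monocytes capped S100a8 and S100a9 and the rule for members did not, so nothing is read from S100a9. With members of neither mark in place of all members, 27 of 11338 genes (0.238%) passed. The differences named above are those of all members. The same question for HFD against NCD was not fitted, because NCD held 14 classical monocytes.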

How the data were processed

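The authors deposited, for each library, Cell Ranger matrices of raw UMI counts per gene and barcode, filtered and unfiltered, and per the labels used Cell Ranger 6.0.1, Seurat 4.0.3 and the mm10 build. The file headers name Cell Ranger 7.0.0 in the filtered and Cell Ranger 4 in the unfiltered matrices, so which version counted the UMIs is unclear; both matrices held the same UMIs for every filtered barcode (0 barcodes differed). The study's methods removed low-quality cells by criteria that differed between samples and are not given in the sources used here, so kept cells here are those with at least 500 genes and at most 20% mitochondrial UMIs. The selection rule was applied to these counts and the UMIs were summed over the members of each library, giving totals of 1008396 (NCD), 3362807 and 4198116 (HFD) and 3709772 (JQF). Sums were tested with edgeR 4.0.16 (TMM scaling, filterByExpr, glmQLFit, groups as the only term, threshold 0.05) in R 4.3.3, with DESeq2 1.42.0 as an alternative. Genes of the rule were left out of all counts of calls. Doublets were predicted with scanpy 1.11.5 and kept. Where a group had 0 UMIs, a floor of 3 UMIs per library gave the bound.

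The members, the gene lists and the tests were chosen with earlier results of these data known. Named genes were, per comparison and direction, the 10 largest log2 differences among genes past the threshold with UMIs in at least 10 member cells and under 50% of the group's UMIs in its top 3 cells, filled up from genes with an unadjusted p under 0.05 and a mean of at least 50 CPM, and the listed genes that passed. A gene that this rule names and a listed gene are not reported here, though counts, sums and medians of lists include the latter. Genes of the members with neither mark were named in the same way, with Lpl, Gpnmb, Fn1, Ear2, Pou2f2 and others added after their values were seen. In counts simulated on these sums for HFD against NCD, with 11505 genes fitted, 15 of 83 genes changed 2-fold, 47 of 54 changed 4-fold and 62 of 63 changed 8-fold were called, with 15 false calls. The changes were placed only in genes with a mean of at least 50 UMIs per library, and all libraries were drawn from a shared profile. Genes with fewer UMIs, and portions that differ between libraries, were not simulated.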

Additional observations from a re-analysis of the deposited data

Results flagged for a closer look

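Droplets with at most 100 UMIs, which the comparisons above do not use, held transcripts of both selecting genes above their NCD level. Ace stood at 8.61 CPM in HFD replicate 1, 13.1 in HFD replicate 2 and 4.78 in JQF, against 2.37 in NCD. Treml4 stood at 41.6, 82.9 and 26.9 CPM, against 11.1 in NCD. HFD replicate 2, the library with the highest level of both, also had the highest share of Cd3 cells that met the Ace and Treml4 limit, at 5.14%. How far free RNA added members was not tested.

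Of the JQF genes named over all members, Chka and Fam49a had a change that differed between the members and classical monocytes in the class by group fit. That fit left 1 residual degree of freedom, and its p-values lean on a spread shared by all genes. The JQF to HFD log2 change of Chka was 1.36 higher in the members, and that of Fam49a was 1.27 lower, a difference of -1.27, both by the class term of the edgeR fit with adjusted p-values of 0.046 and 0.045. For Lpl and Rsad2 the change was 1.47 and 1.74 more positive in the members, and for Cxcl9, Fabp5 and Ms4a4a the difference was -1.85, -1.94 and -3.18, with edgeR adjusted p-values of 0.00034 to 0.0096. The negative difference of Cxcl9 need not be a fall, since Cxcl9 stood higher in JQF than in HFD in the members with neither mark. No group held enough libraries to look for a single library far from the rest.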

How the results depend on the processing

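Shares and counts of calls depended on how members were set apart. The ratio of the HFD to the NCD share, 3.72, was 1.65 over Ptprc cells, 0.487 (reversed) over members and classical monocytes, 4.04 with Ace and Treml4 of at least 1, 3.02 with no Chil3 or F13a1 UMI, 3.46 with at most 1 C1q UMI, 4.02 without dendritic-marked cells, 4.53 without neutrophil-defined cells, 5.89 without either and 4.25 after thinning to 5000 UMIs. Without either HFD replicate it was 3.54 and 3.91. The ratio of JQF to HFD, 0.748, was 1.20 (reversed) over members and classical monocytes, 0.694 with Ace and Treml4 of at least 3, 0.822 with no Chil3 or F13a1 UMI, 0.623 without dendritic-marked cells, 0.680 without neutrophil-defined cells, 0.482 without either and 0.518 after thinning, and without either HFD replicate it was 0.786 and 0.713. Removing neutrophil-defined cells, alone or with dendritic-marked ones, was chosen after seeing the data.

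The 696 HFD to NCD calls (23.4% of them higher) became 345 with library totals and no scaling factor, which moved the median log2 difference of all genes from 0.11 to 0.23, 2377 with no filter on low counts (49.6% higher), 1325 with at most 10% mitochondrial UMIs (34.0% higher), 1220 after thinning (50.5% higher), 1688 with 50 members per library (41.1% higher) and 0 without dendritic-marked cells. They stayed within 1.5 times in the other settings, at 502 in DESeq2 and 693 to 910 elsewhere. The 0 JQF to HFD calls became 472 with no filter, 5 with at most 10% mitochondrial UMIs, 124 after thinning, 236 with equal members, 4 in DESeq2 and, in the portion set apart after its values were seen, 82 (66 higher and 16 lower, 1.01% of 8102 genes). The 0 JQF to NCD calls became 1565, 231, 771, 1176 and 199 in the first 5 of these settings and 1 with no Chil3 or F13a1 UMI. The 208 class differences became 91 without scaling, 336 without a filter and 27 in members with neither mark. The number of genes tested also differed, at 18888 with no filter, 6502 after thinning and 8414 with equal members, against 11963 in the main fit. For HFD against NCD, DESeq2 gave an adjusted p-value for 3872 genes. The causes of these shifts in calls were not tested. Because leaving out an HFD replicate removes the residual degree of freedom, such settings give values and no test.

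Of the named genes, Lrrk2 reversed after thinning (0.22), Bcl2l1 and Egr1 without dendritic-marked cells (0.39 and 0.32), Cadm1 in both settings (7.13 and 1.26) and Gm26802, JQF to HFD, in members with neither mark (-0.0047). Of the other values of named and listed genes in HFD against NCD, 114 lost significance and 508 did not where a test could be made, and 13 of the untested ones moved by more than 1 SE without an HFD replicate (10 without replicate 1 and 3 without replicate 2). Of the 20 named JQF to HFD genes, none of which passed, 7 moved so without HFD replicate 1 and 13 without replicate 2, with no change of sign, and over all settings 57 values gained significance. The named JQF to HFD genes were chosen from these same counts, so nothing is read from those gains. Of the 20 genes named in the members with neither mark, 9 moved by more than the spread between HFD replicates with Ace and Treml4 of at least 3. Without cells that had a Marco or Cd5l UMI 4 moved so, and no sign changed. No paired analysis was possible because the groups share fewer than 2 replicate numbers, NCD and JQF having 1 library each. The 50 NCD members held 1008396 UMIs, so genes with few UMIs there have wide errors.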
